A study of Mus musculus with 10 samples.

Results

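The genes described here are 40 genes of DNA replication and mitosis, 20 of each, taken by symbol from the 36009 gene rows measured in CT26 tumors. CT26 cells come from a colorectal carcinoma of the mouse, and the tumors were grown under the skin of female BALB/c mice labelled wild type. Each of the 10 libraries held polyA RNA of a tumor piece that was cut out before any treatment and kept in RNAlater. The mice then received on the residual tumor a hydrogel loaded with poly(I:C), a synthetic double-stranded RNA that stimulates innate immune receptors, and were followed. Responders (n = 6) were mice whose tumors regressed completely, and non-responders (n = 4) were mice whose tumors grew with no delay. The mice were monitored to assign them, and the paper states that these 6 and 4 were selected. All 10 tumors were thus untreated when sampled and shared cell line, strain, sex and genotype. They differed by the label of what the mouse did later. Tumors are numbered within a group only to name them.

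Before a cell divides it loads the MCM helicase onto replication origins, copies its DNA with polymerases that are held on the template by the sliding clamp PCNA, and draws on enzymes that make deoxynucleotides. It then builds a spindle, checks that every chromosome is attached to it and separates the copies under the control of cyclin-dependent kinases, checkpoint kinases and the anaphase-promoting complex. Transcripts of both groups rise and fall with the cell cycle, so that in tissue they are widely read as a measure of proliferation. Replication genes are known targets of E2F factors, whereas many mitosis genes carry a CHR element (cell cycle genes homology region), often near CCAAT boxes bound by NF-Y.

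The promoters of 6 members, the 3 of each module with the smallest p between response groups among those whose promoter held a motif, are shown because they carry the motifs in which the modules differed. Each is printed 5′ to 3′ on the strand of its gene, from 220 bases before to 30 bases after the annotated start, as given by RefSeq on GRCm38.p6. They are chr6:88898751-88899000 (minus strand), chr7:102441475-102441724 (plus), chrX:93632126-93632375 (minus), chr10:69352883-69353132 (minus), chr2:127831830-127832079 (minus) and chr2:172370541-172370790 (minus). Capitals mark a CHR (TTTGAA or TTCGAA), the CCAAT box or an E2F core (TTCCCGC or TTCGCGC or TTGGCGC or TTGCCGC) on either strand.
Mcm2: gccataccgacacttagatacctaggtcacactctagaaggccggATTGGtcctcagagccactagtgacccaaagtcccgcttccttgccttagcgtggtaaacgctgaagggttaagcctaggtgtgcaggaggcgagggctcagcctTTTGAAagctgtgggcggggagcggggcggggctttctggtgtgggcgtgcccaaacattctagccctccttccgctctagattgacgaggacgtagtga
Rrm1: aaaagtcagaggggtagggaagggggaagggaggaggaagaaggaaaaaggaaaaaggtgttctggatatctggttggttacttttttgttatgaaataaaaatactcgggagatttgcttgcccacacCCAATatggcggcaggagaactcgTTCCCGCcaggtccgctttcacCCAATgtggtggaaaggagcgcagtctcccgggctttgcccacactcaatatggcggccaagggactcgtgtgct
Pola1: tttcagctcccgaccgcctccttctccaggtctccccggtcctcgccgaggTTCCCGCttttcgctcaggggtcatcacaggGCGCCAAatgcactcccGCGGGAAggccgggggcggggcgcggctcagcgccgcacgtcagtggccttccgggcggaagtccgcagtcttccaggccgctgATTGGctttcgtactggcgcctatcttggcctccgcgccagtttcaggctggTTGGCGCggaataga
Cdk1: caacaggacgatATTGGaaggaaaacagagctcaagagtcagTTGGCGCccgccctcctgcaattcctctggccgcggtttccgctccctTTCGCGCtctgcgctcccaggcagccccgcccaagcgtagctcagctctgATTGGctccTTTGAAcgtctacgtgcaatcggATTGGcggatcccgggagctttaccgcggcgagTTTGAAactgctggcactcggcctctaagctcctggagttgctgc
Bub1: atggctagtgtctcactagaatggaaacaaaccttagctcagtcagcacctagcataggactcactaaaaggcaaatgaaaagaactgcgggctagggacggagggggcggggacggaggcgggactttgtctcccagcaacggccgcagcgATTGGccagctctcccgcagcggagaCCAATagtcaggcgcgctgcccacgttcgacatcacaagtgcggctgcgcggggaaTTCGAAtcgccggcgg
Aurka: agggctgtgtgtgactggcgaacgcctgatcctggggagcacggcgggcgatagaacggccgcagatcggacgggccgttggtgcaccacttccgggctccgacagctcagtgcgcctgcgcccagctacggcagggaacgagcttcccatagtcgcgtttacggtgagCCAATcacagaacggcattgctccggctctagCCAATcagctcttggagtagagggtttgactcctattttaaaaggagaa
The windows of Rrm1 and Pola1 held E2F cores and that of Mcm2 held no E2F core, but did hold TTTGAA as well as the CCAAT box. Those of Cdk1 and Bub1 held a CHR beside CCAAT boxes, and the CHR of Aurka lay beyond the stretch printed. Cdk1 also held E2F cores.

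Over all members with a promoter in the RefSeq table (33 of 40), the modules differed in the motifs that they carried. Windows of 300 bases, 250 before and 50 after the start, were searched on both strands. The CCAAT box read on the other strand can share letters with TTGGCGC, and TTCGAA, which reads the same on both strands, was counted once. An E2F core was found in 12 of 17 replication promoters (70.6%), in 3 of 16 mitosis promoters (18.8%) and in 10.9% of all 27025 genes with a window. A CHR was found in 13 of 16 mitosis promoters (81.2%), in 3 of 17 replication promoters (17.6%) and in 21.7% of all genes. CCAAT was found in 15 of 16 mitosis promoters (93.8%), in 11 of 17 replication promoters (64.7%) and in 41.1% of all genes. A CHR and a CCAAT box stood in the same window for 13 of 16 mitosis genes (81.2%). That held for 2 of 17 replication genes (11.8%) and 8.61% of all genes. A gene counted when any of its windows held the motif. These are matches of letters and no binding was measured. Mcm4, Gins1, Gins2, Ccna2, Aurkb, Kif20a and Tpx2 had no entry.

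**Figure D1:**
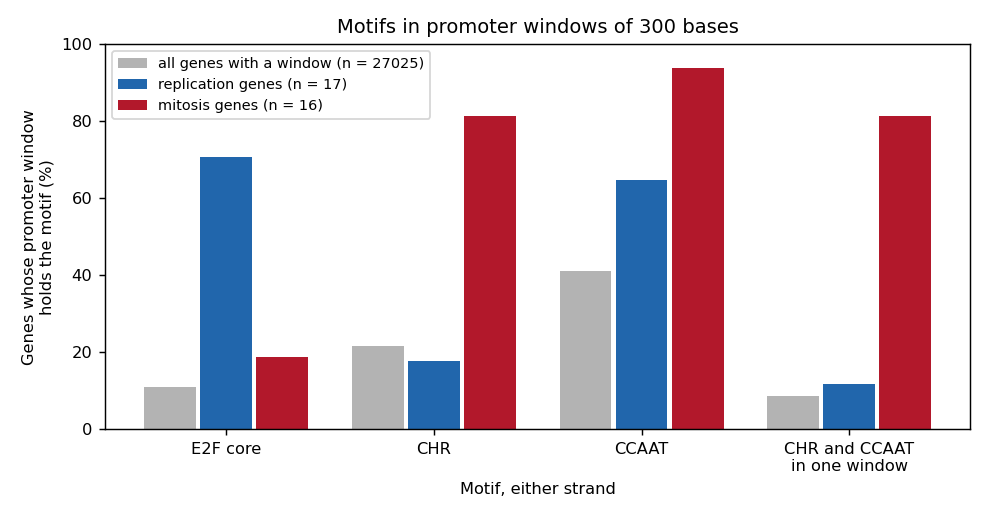
Share of genes (%, y axis) with a promoter window that held a motif on either strand (x axis). Motifs are an E2F core, a CHR, a CCAAT box, or a CHR and a CCAAT box in the same window. Genes are all 27025 with a window, 17 replication genes and 16 mitosis genes. E2F cores stood in windows of 70.6% of replication genes and 18.8% of mitosis genes. A CHR with a CCAAT box stood in those of 11.8% and 81.2%.

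The libraries held 29065126 to 38042544 estimated counts in responders and 23374649 to 32986456 in non-responders. No pair of libraries was so alike as to be the same library deposited again. Of 11 epithelial markers, Epcam, Krt8, Krt18, Cdx1, Vil1, Cldn4 and Cldn7 had at most 19 counts in any tumor and failed the filter on low counts in the labelled carcinoma, while Cdh1, Krt19, Krt20 and Cdx2 were tested and Krt20 reached 12.7 to 75.3 CPM. Markers of other cells moved with the response label. Of the leukocyte markers, 9 of 12 were higher in responders at an adjusted p under 0.05, with summed levels of 1823 to 2683 CPM in responders and 1117 to 1686 in non-responders. So were 8 of 10 macrophage markers (5100 to 7004 against 3475 to 4487 CPM), 2 of 12 T and NK cell markers (220.3 to 499.9 against 93.7 to 237 CPM), 3 of 10 skeletal muscle markers (561 to 1594 against 421 to 562 CPM), 1 of 7 adipocyte markers tested and 1 of 8 endothelial markers. Lower in responders were 3 of 10 fibroblast markers, and none of the 2 keratinocyte or 4 epithelial markers tested passed the edgeR test. Of all genes tested, 4.71% passed higher and 3.35% lower in responders. At an unadjusted p under 0.05, 11 of 12 T and NK cell, 9 of 10 skeletal muscle, 7 of 7 adipocyte and 1 of 8 endothelial markers were higher. So was 1 of the 2 keratinocyte markers, while 3 of the 4 epithelial markers were lower. At that threshold 29.1% of all genes differed in either direction. The part of these other cells in the values below was not tested, and in bulk tissue fewer dividing cells and less RNA of the members per cell cannot be told apart.

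All 40 members passed the filter on low counts and were measured in every tumor. Levels of different genes were compared roughly, as reads per kilobase of gene model and library size (RPKM). The gene model merges all annotated exons and can be longer than a single transcript. On this scale the clamp Pcna was the most abundant member at 116. It was followed by Top2a, the topoisomerase that untangles chromosomes before they part (71.8), Mki67, which coats mitotic chromosomes (53.6), Cdc20, which activates the anaphase-promoting complex (53.2), and Ccna2, the cyclin of late S phase and entry into mitosis (49.8). Lowest were Mcm10, which helps to start the fork (4.58), Cdc6, which loads the helicase (5.67), and Pola1, the catalytic subunit of the polymerase that works with primase (7.17). In CPM, counts divided by the TMM-scaled size of each library, the 40 members together took 4748 to 5221 in responders and 4816 to 5127 in non-responders.

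The members varied little from tumor to tumor. The coefficient of variation of CPM over the 10 tumors had a median of 5.34% over the members against 11.2% over the 16041 genes tested, and it was under 10% for 38 of 40 members against 45.7% of all genes. It ran from 2.93% for Cdc6 to 13.3% for Cdt1, the licensing factor that is destroyed once replication begins. The other member above 10% was Plk1, a kinase that drives entry into mitosis (10.9%). Abundant genes have less counting noise, and this coefficient was not compared with that of genes of like abundance. Counting error alone (Poisson, root mean square over the tumors) had a median of 1.89% over the members. It reached 5.04% for Gins1 and 3.37% for Cdc6, above their coefficients of variation (4.42% and 2.93%). The biological coefficient of variation estimated by edgeR was under its abundance trend for 37 of 40 members (92.5%) and for 76.3% of all genes tested.

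**Figure D2:**
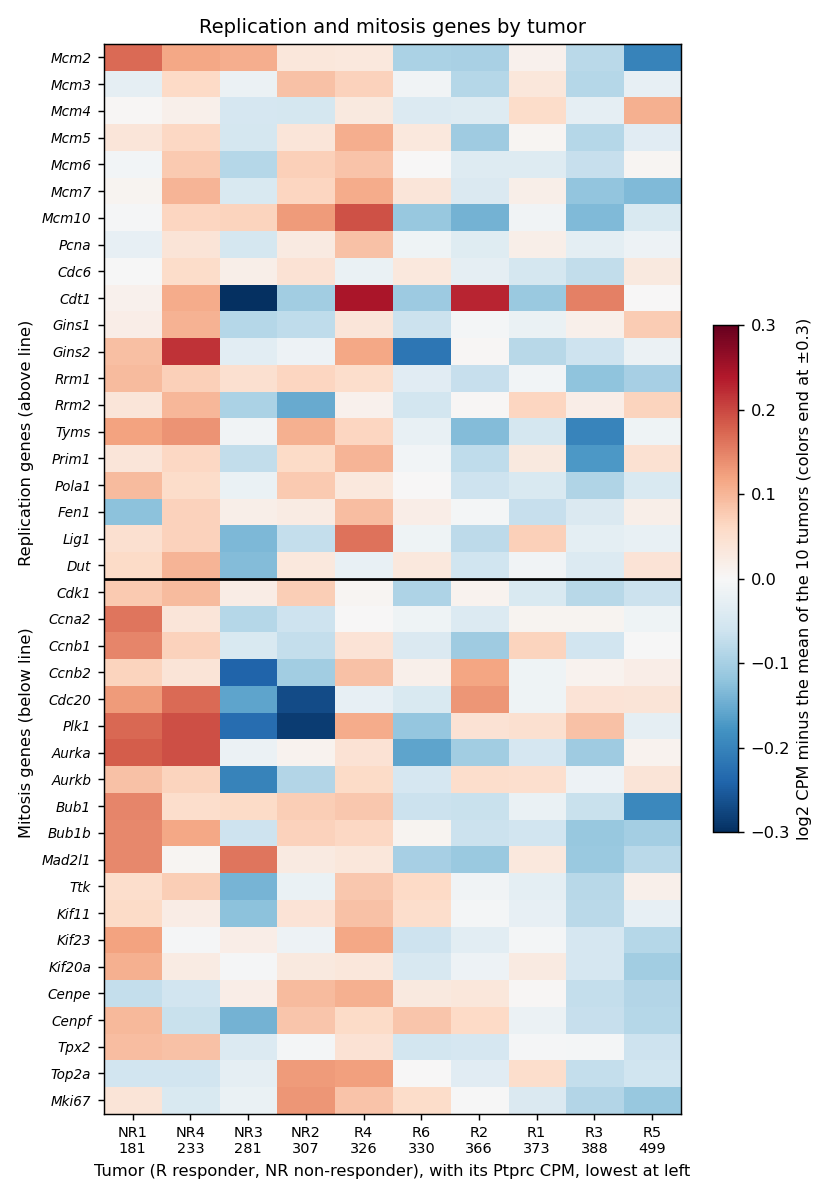
Log2 CPM of each of the 40 members (rows, replication above and mitosis below the line) minus its mean over the 10 tumors (columns, ordered by Ptprc CPM, lowest at left, with R for responder and NR for non-responder); the color bar gives the difference, with colors ending at ±0.3. Most cells are pale, Cdt1 and Plk1 have the strongest colors, and Mcm2 runs from high at the left to low at the right.

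The comparison of responders with non-responders asked whether tumors that later regressed had differed in proliferation genes before treatment. No member passed the test, and every estimate was small. By edgeR's quasi-likelihood test over all 16041 genes, 0 of 40 members had an adjusted p under 0.05, where 8.06% of all genes tested did (4.71% higher and 3.35% lower in responders). DESeq2 called 3 members, all lower in responders, namely Mcm2, Rrm1 and Cdk1, where it called 17.6% of all genes to which it gave an adjusted p (7.16% lower). The limma-voom test called 0 members and 6.75% of all genes. At an unadjusted p under 0.05, 9 of 40 members were lower in responders (4 replication and 5 mitosis genes) and 0 higher, where 13.5% of all genes were lower and 29.1% differed in either direction. The estimate was below 0 for 25 of 40 members against 51.8% of all genes. The median log2 fold change was -0.03 in each module and -0.01 over all genes, and single members lay between -0.18 (Mcm2) and 0.16 (Cdt1). The 95% intervals bounded the change of the median member at 1.12-fold in either direction and that of every member at 1.32-fold (Cdt1), against 1.27-fold for the median of all genes. Groups did not overlap for 2 of 40 members, Mcm2 and Cdk1, both lower in responders, where 10.4% of all genes did not overlap (4.55% lower in responders).

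**Figure D3:**
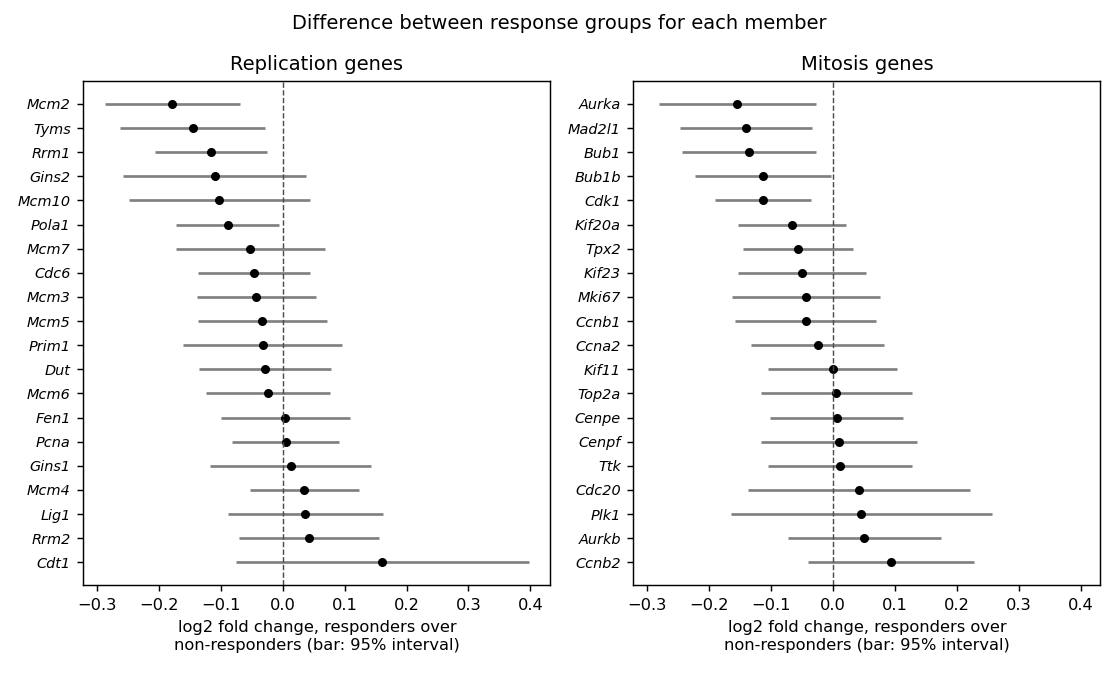
Log2 fold change of responders over non-responders (x axis, 0 means no difference) for each replication gene (left) and mitosis gene (right), with points for edgeR estimates and bars for 95% intervals. Estimates run from -0.18 for Mcm2 to 0.16 for Cdt1, and the widest bar is that of Cdt1.

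Among the genes of helicase and licensing, Mcm2 stood closest to the threshold. Mcm2 (ENSMUSG00000002870, chromosome 6, 88883474 to 88898780 on GRCm38, as for all genes below), a subunit of the replicative helicase, was at 130.4 CPM at the lowest, 141 at the median and 153 at the highest of the 6 responders, and 169, 153, 162 and 162 CPM in non-responders 1 to 4. All 6 responders were below all 4 non-responders, by a narrow margin between responder 4 (153.2 CPM) and non-responder 2 (153.5 CPM). The means were 143 ± 8.36 CPM (SD, n = 6) against 162 ± 6.23 CPM (SD, n = 4) (log2 fold change -0.18, SE 0.050, adjusted p = 0.0511). The call depended on single tumors and on the tool, since the adjusted p was 0.0399 without responder 4, 0.0424 without non-responder 2 and 0.0148 with DESeq2. The other helicase subunits, Mcm3 to Mcm7, had log2 fold changes between -0.05 (Mcm7) and 0.04 (Mcm4) and groups that overlapped. Cdt1 had the largest estimate above 0 and was also the noisiest member, with responders at 42.8 to 54.8 CPM and non-responders at 34.4 to 50.0 CPM (adjusted p = 0.347). Mcm10, Cdc6, Gins1 and Gins2, of which the last pair belong to the GINS complex that activates the helicase, had adjusted p-values of 0.306 to 0.911.

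At the fork itself, Pcna (ENSMUSG00000027342, chromosome 2, 132249162 to 132253314) showed next to no difference. It was at 273 CPM at the lowest, 277 at the median and 297 at the highest of the 6 responders, and 275, 284, 269 and 287 CPM in non-responders 1 to 4. The groups overlapped throughout, with means of 279.9 ± 9.02 CPM (SD, n = 6) against 279 ± 8.28 CPM (SD, n = 4) (log2 fold change 0.0047, SE 0.040, adjusted p = 0.951, 95% interval -0.08 to 0.09). Pola1 was 61.6 ± 1.90 CPM (SD, n = 6) against 65.5 ± 2.28 CPM (SD, n = 4), with an unadjusted p of 0.0389 and an adjusted p of 0.148 by edgeR. Prim1 (the catalytic primase subunit), Fen1 (the flap endonuclease) and Lig1 (the ligase that joins Okazaki fragments) had log2 fold changes of -0.03, 0.0046 and 0.04, none past the threshold.

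Of the enzymes of nucleotide supply, the large subunit of ribonucleotide reductase and its small subunit had estimates on opposite sides of 0. Rrm1, the large subunit (ENSMUSG00000030978, chromosome 7, 102441695 to 102469771), was at 198 CPM at the lowest, 208 at the median and 224 at the highest of the 6 responders, and 230.2, 226, 223 and 227 CPM in non-responders 1 to 4. Only responder 4 reached the lowest non-responder, and the means were 209 ± 9.29 CPM (SD, n = 6) against 226 ± 3.0 CPM (SD, n = 4) (log2 fold change -0.12, SE 0.041, adjusted p = 0.0956). Rrm2, the small subunit (ENSMUSG00000020649, chromosome 12, 24708241 to 24714146), was at 88.9 CPM at the lowest, 93.3 at the median and 96.7 at the highest of the 6 responders, and 94.7, 83.1, 86.5 and 98.9 CPM in non-responders 1 to 4, so that non-responders spanned the range of the responders. Its means were 93.5 ± 2.86 CPM (SD, n = 6) against 90.8 ± 7.29 CPM (SD, n = 4) (log2 fold change 0.04, SE 0.051, adjusted p = 0.620). Tyms, thymidylate synthase (ENSMUSG00000025747, chromosome 5, 30058202 to 30073617), was at 54.0 CPM at the lowest, 60.4 at the median and 64.8 at the highest of the 6 responders, and 67.3, 66.7, 61.5 and 68.0 CPM in non-responders 1 to 4. The highest responder lay above non-responder 3, the lowest of its group, and the means were 59.6 ± 3.82 CPM (SD, n = 6) against 65.9 ± 2.98 CPM (SD, n = 4) (log2 fold change -0.14, SE 0.053, adjusted p = 0.102). Dut, which removes dUTP, differed by less than its spread (log2 fold change -0.03, SE 0.049, adjusted p = 0.740).

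Cdk1, the kinase at the center of mitotic entry, was the mitosis gene with the smallest p. It (ENSMUSG00000019942, chromosome 10, 69335146 to 69352938) was at 94.96 CPM at the lowest, 97.5 at the median and 102 at the highest of the 6 responders, and 107, 107, 103 and 108 CPM in non-responders 1 to 4. All 6 responders were below all 4 non-responders, with the highest responder close under non-responder 3. The means were 98.2 ± 3.0 CPM (SD, n = 6) against 106 ± 2.33 CPM (SD, n = 4) (log2 fold change -0.11, SE 0.035, adjusted p = 0.0687). Its cyclin partner Ccnb1 (ENSMUSG00000041431, chromosome 13, 100778650 to 100786570) was at 90.6 CPM at the lowest, 95.9 at the median and 102 at the highest of the 6 responders, and 108, 92.8, 94.4 and 102 CPM in non-responders 1 to 4. The groups overlapped, with non-responder 1 above every responder, and the means were 96.4 ± 4.30 CPM (SD, n = 6) against 99.4 ± 7.09 CPM (SD, n = 4) (log2 fold change -0.04, SE 0.052, adjusted p = 0.619). Ccna2 had a log2 fold change of -0.02 and Ccnb2 of 0.09 (adjusted p = 0.784 and 0.330).

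Members of the spindle assembly checkpoint, which holds back anaphase until chromosomes are attached, had estimates below 0 except Ttk. Mad2l1, which binds Cdc20 (ENSMUSG00000029910, chromosome 6, 66535390 to 66547220), was at 71.3 CPM at the lowest, 72.4 at the median and 78.9 at the highest of the 6 responders, and 85.1, 78.5, 86.1 and 77.4 CPM in non-responders 1 to 4. The highest responders reached into the range of the non-responders, and the means were 74.2 ± 3.64 CPM (SD, n = 6) against 81.8 ± 4.48 CPM (SD, n = 4) (log2 fold change -0.14, SE 0.049, adjusted p = 0.0880). Bub1, a checkpoint kinase (ENSMUSG00000027379, chromosome 2, 127801122 to 127831865), was at 61.6 CPM at the lowest, 67.4 at the median and 74.5 at the highest of the 6 responders, and 77.9, 74.2, 73.3 and 73.1 CPM in non-responders 1 to 4. All responders but responder 4 were below all non-responders, and the means were 67.9 ± 4.15 CPM (SD, n = 6) against 74.6 ± 2.26 CPM (SD, n = 4) (log2 fold change -0.14, SE 0.049, adjusted p = 0.0983). Bub1b, its partner at the kinetochore (ENSMUSG00000040084, chromosome 2, 118598211 to 118641591), was at 90.6 CPM at the lowest, 94.1 at the median and 102 at the highest of the 6 responders, and 108, 103, 94.0 and 106 CPM in non-responders 1 to 4. Its groups overlapped, with means of 95.2 ± 4.51 CPM (SD, n = 6) against 103 ± 6.36 CPM (SD, n = 4) (log2 fold change -0.11, SE 0.050, adjusted p = 0.164). Ttk, the kinase upstream of them, had a log2 fold change of 0.01.

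Of the kinases of the spindle, Aurka, at the centrosomes, was 45.2 ± 2.43 CPM (SD, n = 6) against 50.3 ± 3.84 CPM (SD, n = 4) and had an unadjusted p of 0.0213 (edgeR adjusted p = 0.107). Aurkb, at the kinetochores, and Plk1 had estimates of 0.05 and 0.05, as had Cdc20 (0.04), none past the threshold. For Plk1 and Cdc20 the 4 non-responders themselves stood apart, with non-responders 1 and 4 high and 2 and 3 low. Plk1 was at 80.5, 58.7, 61.0 and 81.8 CPM in non-responders 1 to 4, against 65.9 to 77.3 CPM in responders. The motors Kif11, Kif23, Kif20a and Cenpe, the kinetochore protein Cenpf and the spindle assembly factor Tpx2 had estimates between -0.07 (Kif20a) and 0.0098 (Cenpf).

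The markers most used for proliferating cells did not differ beyond their spread. Mki67 (ENSMUSG00000031004, chromosome 7, 135689784 to 135716361) was at 498 CPM at the lowest, 531 at the median and 572 at the highest of the 6 responders, and 554, 591, 531 and 522 CPM in non-responders 1 to 4. The groups overlapped almost fully, with means of 533 ± 29.1 CPM (SD, n = 6) against 549 ± 30.7 CPM (SD, n = 4) (log2 fold change -0.04, SE 0.054, adjusted p = 0.636, 95% interval -0.16 to 0.08). Top2a (ENSMUSG00000020914, chromosome 11, 98992943 to 99024189) was at 615 CPM at the lowest, 639 at the median and 704 at the highest of the 6 responders, and 621, 706, 634 and 621 CPM in non-responders 1 to 4. Responder 4 and non-responder 2 were the high tumors of their groups, and the means were 648 ± 33.9 CPM (SD, n = 6) against 645 ± 40.9 CPM (SD, n = 4) (log2 fold change 0.0059, SE 0.056, adjusted p = 0.957, 95% interval -0.12 to 0.13).

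**Figure D4:**
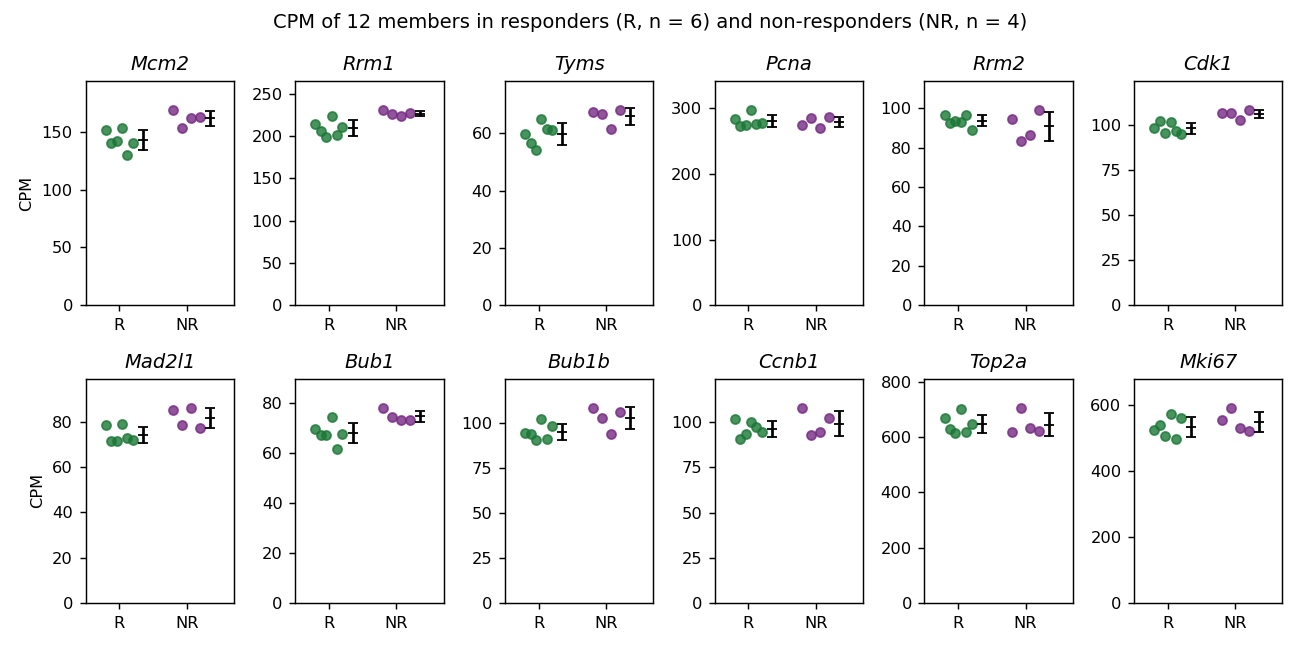
CPM (y axis, starting at 0) of 12 members in responders (R, n = 6) and non-responders (NR, n = 4), with a point for each tumor and bars for the mean ± SD. Responders lie below non-responders without overlap for Mcm2 and Cdk1, and the groups overlap for the other 10 genes.

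The next question was how both modules related to Ptprc, which encodes CD45, the surface phosphatase carried by leukocytes. Its CPM in responders 1 to 6 was 373, 366, 388, 326, 499 and 330.3, and that in non-responders 1 to 4 was 181, 307, 281 and 233. Responder 5 was far above the other tumors, non-responder 1 was the lowest, and the groups did not overlap. As a score of each module, the mean log2 CPM of its 20 genes was taken. The replication score of responders 1 to 6 was 6.27, 6.23, 6.21, 6.35, 6.26 and 6.24, and that of non-responders 1 to 4 was 6.31, 6.30, 6.22 and 6.36. In the same order, the mitosis score of the responders was 6.70, 6.69, 6.66, 6.77, 6.66 and 6.68, and that of the non-responders was 6.80, 6.70, 6.64 and 6.76. Both scores overlapped between groups, at 6.26 ± 0.05 against 6.30 ± 0.06 for replication and 6.69 ± 0.04 against 6.72 ± 0.07 for mitosis (SD, n = 6 and n = 4). The whole range over the 10 tumors was 0.15 and 0.16 on the log2 scale, while log2 Ptprc CPM spanned 1.46.

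Both scores tended to be lower where Ptprc was higher. Over the 10 tumors, Pearson's r with Ptprc CPM was -0.457 for replication (Spearman's rho -0.527) and -0.660 for mitosis (rho -0.515). Within the 6 responders r was -0.256 (rho -0.371) for replication and -0.618 (rho -0.771) for mitosis. Over deviations from the group means r was -0.324 (rho -0.515) and -0.694 (rho -0.855). Without responder 5 and non-responder 1, the tumors farthest from the median of Ptprc, r was -0.575 (rho -0.548) for replication and -0.337 (rho -0.214) for mitosis, so that the mitosis relation rested in good part on this pair of tumors. The mitosis score minus the replication score had an r of -0.344 with Ptprc CPM over all tumors and of 0.818 without these 2 tumors, so that no difference between the modules in their relation to Ptprc held over both sets. These correlations describe 10 tumors, carry no p because members were chosen, and set values against each other that come from the same library and share its total. The mean log2 CPM of the T and NK cell markers, which rose with Ptprc, had an r of -0.559 with the replication score and -0.781 with the mitosis score, and that of skeletal muscle markers -0.584 and -0.635. In the fit of single genes described next, 10 of 11 other leukocyte markers, 9 of 10 macrophage, 12 of 12 T and NK cell and 9 of 10 skeletal muscle markers rose with Ptprc, and none of these markers was at 0 in any tumor. So rose 6 of 7 adipocyte and 2 of 8 endothelial markers, while 2 of 4 epithelial and 3 of 10 fibroblast markers fell, in the direction of the scores, and 1 fibroblast marker rose. Their part in the relation was not tested.

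**Figure D5:**
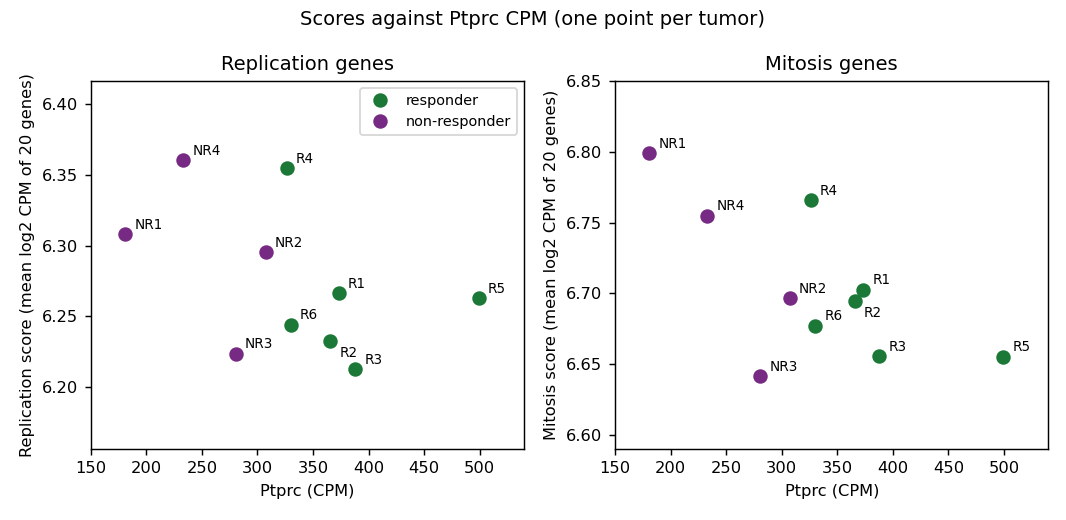
Replication score (left) and mitosis score (right), each the mean log2 CPM of 20 genes (y axis), against Ptprc CPM (x axis), with a point for each of 6 responders (R) and 4 non-responders (NR). Pearson's r over the 10 tumors is -0.457 at left and -0.660 at right, and responder 5 at 499 CPM and non-responder 1 at 181 CPM are the extremes of Ptprc.

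Gene by gene, 4 of 40 members fell with Ptprc and none rose. In an edgeR fit of every gene on log2 Ptprc CPM, Mcm2, Rrm1, Bub1 and Bub1b passed at an adjusted p under 0.05 and fell, where 10.9% of all 16040 genes fell, 15.1% rose and 26.0% did either. The members' share was thus near that of all genes. DESeq2 called 7 members in this fit, 5 of them mitosis genes, where 13.1% of all genes with an adjusted p fell, and raw library totals called 6, of which 4 were mitosis genes, where 11.6% fell. All of these fell. The slope, in log2 units of the gene per doubling of Ptprc CPM, was -0.26 (SE 0.050, adjusted p = 0.00280) for Mcm2, -0.21 (SE 0.049, adjusted p = 0.00782) for Bub1, -0.19 (SE 0.050, adjusted p = 0.0146) for Bub1b and -0.16 (SE 0.047, adjusted p = 0.0291) for Rrm1. At an unadjusted p under 0.05, 12 members fell (4 replication and 8 mitosis genes) and 0 rose, where 17.7% of all genes fell. Estimates were below 0 for 32 of 40 members (15 replication and 17 mitosis genes) against 51.3% of all genes, with medians of -0.04 for replication, -0.10 for mitosis and -0.01 for all genes. Pcna, Rrm2 and Top2a, with slopes of -0.0063, 0.0067 and 0.02, had estimates smaller than their errors (SE 0.048, 0.064 and 0.068). Single tumors carried some of these calls. Without responder 5 the adjusted p of Bub1 was 0.0588, and without non-responder 1 that of Bub1b was 0.112. For Rrm1 it was 0.0969 without non-responder 1, 0.0518 without non-responder 4, 0.0530 without responder 3 and 0.0865 without responder 5, whereas Mcm2 passed under each of the 10 omissions. Mki67 had a slope of -0.08 (SE 0.065, adjusted p = 0.419), Cdk1 of -0.13 (SE 0.047, adjusted p = 0.0622) and Ccnb1 of -0.11 (SE 0.057, adjusted p = 0.188).

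The response label and Ptprc moved together in these tumors, and no slope of a member passed when the label was in the model. Within response groups, 0 of 40 members had an adjusted p under 0.05 by edgeR, where 6.45% of all genes did (0.960% falling and 5.49% rising). At an unadjusted p under 0.05, 5 members fell and 0 rose, where 21.0% of all genes moved either way and 7.76% fell. They were Mcm2, Ccna2, Plk1, Bub1 and Bub1b, with within-group slopes of -0.21, -0.19, -0.40, -0.20 and -0.20. Estimates were below 0 for 33 of 40 members, against 49.4% of all genes. Without responder 5 and non-responder 1 the slope fit called 0 of 40 members, where 7.69% of all genes were called (2.10% falling). At an unadjusted p under 0.05, 6 members fell (3 in each module), where 11.0% of all genes fell. With Ptprc in the model, the difference between response groups was called for 0 of 40 members and for 0 of all 16040 genes (2 members and 5.27% of all genes at an unadjusted p under 0.05). Under that model the log2 fold change of Mcm2 was -0.05 and that of Cdk1 -0.08.

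The members varied together across tumors, small as the variation was. Over pairs of replication genes the median correlation of log2 CPM was 0.43, with 163 of 190 pairs above 0 (85.8%). Over pairs of mitosis genes it was 0.37 (156 of 190 pairs, 82.1%) and between modules 0.36 (317 of 400 pairs, 79.2%), while pairs drawn from an evenly spaced sample of all genes tested had a median of -0.0007 and 49.9% above 0. The replication and mitosis scores had a Pearson's r of 0.820 with each other (rho 0.830), of 0.764 without the 2 tumors farthest in the replication score, non-responder 4 and responder 4, and of 0.800 over deviations from the group means. These are descriptions over 10 tumors, whose pairs share members and libraries. Tpx2 (0.87), Mcm6 (0.86), Mcm5 (0.85) and Bub1b (0.83) correlated most with the other genes of their own module, and Cenpe (-0.01), Top2a (0.11), Cdt1 (0.18) and Rrm2 (0.24) least. Highest in responder 4 were 12 members, 9 of them replication genes, and highest in non-responder 1 were 12, of which 9 were mitosis genes. Non-responder 4 held the maximum of 10 members, and non-responder 3, from the same response group, held the minimum of 12.

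The other genes of the pathway were counted in the same fits. Between response groups, 0 of 40 further replication genes and 0 of 42 further mitosis genes were called by edgeR, 5 and 4 of them at an unadjusted p under 0.05 (1 of each higher in responders), against 29.1% of all genes. DESeq2 called Cdc45, Gmnn and Kif2c among those followed by name, where it called 17.6% of all genes to which it gave an adjusted p. Its calls over the whole of both lists were not counted. Of 36 cell-cycle regulators, 32 were tested. At an unadjusted p under 0.05, 7 were lower and 4 higher in responders, where 13.5% of all genes were lower and 29.1% differed in either direction. By edgeR's adjusted p 1 regulator was called, where 8.06% of all genes were (4.71% higher). This was Cdkn2c, an inhibitor of the kinases that open the cycle, which was at 58.0 CPM at the lowest, 66.4 at the median and 70.6 at the highest of the 6 responders, and 48.9, 53.5, 52.0 and 59.6 CPM in non-responders 1 to 4. Only non-responder 4 reached the responders, and the means were 65.0 ± 5.67 CPM (SD, n = 6) against 53.5 ± 4.51 CPM (SD, n = 4) (log2 fold change 0.28, SE 0.074, adjusted p = 0.0448). Its call held without responder 1 or responder 6 and was lost without any 1 of the other 8 tumors (adjusted p from 0.0529 without responder 4 to 0.115 without non-responder 1) and with limma-voom (0.0515). Of the other inhibitors, Cdkn2a, Cdkn2b and Cdkn1c had too few counts to be tested.

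With Ptprc, 3 of 40 further replication genes were called, against 26.0% of all genes. Cdc45, which joins the helicase at the fork, fell with a slope of -0.23 (SE 0.070, adjusted p = 0.0305), and Pole, the leading-strand polymerase, with -0.20 (SE 0.064, adjusted p = 0.0350). Gmnn, which encodes geminin, the inhibitor of Cdt1, rose with 0.23 (SE 0.075, adjusted p = 0.0415). Of 42 further mitosis genes, 5 fell and 0 rose, where 10.9% of all genes fell and 15.1% rose, so that the share that fell was near that of all genes. These were Kif2c, a microtubule-depolymerizing kinesin, the condensin subunit Ncapd2, the phosphatase Cdc25b, which activates Cdk1, the checkpoint gene Mad1l1 and Sgo2a, which protects cohesin. Within response groups, 0 of 40 and 0 of 42 passed by edgeR, where 6.45% of all genes did (0.960% falling). At an unadjusted p under 0.05, 4 and 12 of them fell and 0 rose, where 7.76% of all genes fell. The slopes over all tumors were -0.20, -0.22, -0.23, -0.21 and -0.18 for these 5 mitosis genes in that order.

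Of the 32 regulators, 7 fell with Ptprc and 3 rose, where 10.9% of all genes fell, 15.1% rose and 26.0% did either. Cdkn1a, the inhibitor p21 that is induced by p53, had the steepest slope of the list, -0.65 (SE 0.096, adjusted p = 4.59e-04). It was at 85.4 CPM at the lowest, 101 at the median and 124 at the highest of the 6 responders, and 169, 109, 141 and 128 CPM in non-responders 1 to 4. Non-responder 1 was the highest tumor, the groups overlapped, and the means were 102 ± 13.2 CPM (SD, n = 6) against 137 ± 25.1 CPM (SD, n = 4) (log2 fold change -0.42, SE 0.121, adjusted p = 0.0539). The difference between groups passed without non-responder 2 (adjusted p = 0.0266), without responder 4 (0.0326) and with DESeq2 (0.0123). The slope also passed within response groups (-0.62, adjusted p = 0.0475), as did the repressor E2f7 (-0.39, adjusted p = 0.0277), named here after its values were seen, and no other of the 32. Cdk4, the kinase of the start of the cycle, and Tfdp1, the partner of E2F factors, fell with slopes of -0.24 (SE 0.047, adjusted p = 0.00266) and -0.24 (SE 0.049, adjusted p = 0.00328). So did E2f4, a repressive E2F, with -0.22 (SE 0.053, adjusted p = 0.0110), and Foxm1, which drives mitosis genes, with -0.30 (SE 0.072, adjusted p = 0.00898). E2f1, an activating E2F, did not pass at -0.16 (SE 0.059, adjusted p = 0.0658), nor did Mybl2, a partner of Foxm1, at -0.13 (SE 0.072, adjusted p = 0.225), Chek1, the replication checkpoint kinase, at -0.12 (SE 0.084, adjusted p = 0.329), or Ccnd1, which encodes cyclin D1, at 0.03 (SE 0.064, adjusted p = 0.786). Cdkn2c was among those that rose, at 0.32 (SE 0.101, adjusted p = 0.0346). Between response groups, 1 regulator of 32 did not overlap, where 10.4% of all genes did not. It was Cdk4, at 239 to 271.1 CPM in responders and 271.8 to 300 CPM in non-responders. Its log2 fold change was -0.17 (adjusted p = 0.0512 by edgeR and 0.00799 by DESeq2).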

How the data were processed

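PolyA RNA of 10 tumors was sequenced as 150 bp paired ends. The authors estimated transcript abundance with Kallisto and collapsed transcripts into genes by tximport on mm10 (GRCm38). What they deposited are expected counts, that is estimated counts of reads, of which 45.1% were not whole, for 36009 genes. Annotation release, strand setting and tximport option are not given in the sources used here. Of the rows, 9633 had no gene name and held 1.04% to 1.23% of a tumor's counts; they stayed in the fits. Pseudoalignment leaves overlapping genes uncertain, and exons of Mcm7, Gins2, Fen1, Lig1, Ccna2, Cdc20, Plk1, Kif20a and Top2a overlap those of another gene, for 7 of them only on the opposite strand.

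Estimated counts were rounded, filtered with filterByExpr (minimum count 10, minimum total 15), which left 16041 genes, and scaled by TMM. Responders were compared with non-responders, and every gene was fitted on log2 Ptprc CPM with and without the response label, by edgeR 4.0.16 in R 4.3.3 (glmQLFit and glmQLFTest, two-sided, Benjamini-Hochberg over all genes, threshold 0.05). Ptprc itself was left out of the counts of genes called in the fits on Ptprc. Fold changes are responders over non-responders, and a prior count of 2 went into log2 CPM. The p-values measure the spread between these tumors, of an experiment that was done once. Coordinates are from GENCODE on GRCm38 and gene length is that of merged exons. Alternatives were DESeq2 1.42.0, limma-voom (limma 3.58.1), RLE size factors, raw totals, no filter, Ptprc as covariate and each tumor left out, and, chosen after seeing the data, the Ptprc fits without the 2 tumors farthest in Ptprc and with the response label. The tests were tried on simulated counts.

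The members and all lists were chosen with earlier results of these data known. For Mcm2, Pcna, Rrm2, Mki67, Top2a and Ccnb1, CPM is given in each non-responder and as the lowest, median and highest of the responders. The same is given, per module, for the 3 members with the smallest p between groups and the 2 with the smallest p for the Ptprc slope. Pathway genes are named if called, at most 5 a list, with E2f1, Foxm1, Mybl2, Ccnd1, Cdkn1a and Chek1 in any case. Lin54 was not analysed here.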

Additional observations from a re-analysis of the deposited data

Results flagged for a closer look

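Among 94 groups of values examined, 4 held a value well apart from the others, and chance alone gives about 1 in 20 groups, or 4.7 of 94. Ptprc was at 499 CPM in responder 5, above the other responders at 326 to 388 CPM. Mcm10 was at 40.1 CPM in responder 4, above the other responders at 31.9 to 34.9 CPM, and the mean log2 CPM of the 40 further replication genes was 5.52 in the same tumor, above 5.41 to 5.45 in the other responders. Top2a was at 706 CPM in non-responder 2, above the other non-responders at 621 to 634 CPM.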

How the results depend on the processing

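No paired analysis was possible because the tumor numbers are an order of accession and pair nothing across groups. Settings for the comparison of responders with non-responders moved counts of calls, and some of them also moved estimates. DESeq2 called 2602 genes (17.6%), 2 replication members and 1 mitosis member. Raw library totals called 1303 genes (8.12%) and 1 replication member, and Ptprc as a covariate left 0 genes called. Leaving out 1 tumor gave between 0 genes (without non-responder 4) and 1897 (without non-responder 2), and between 0 and 1 replication members. With Ptprc as a covariate the median log2 fold change of mitosis members was 0.042. Estimates were then below 0 for 16 of 40 members, against 25 without the covariate, where 8445 of all 16040 genes were below 0. Of the 20 mitosis genes, 5 were below 0, against 12 without it. Among the genes followed by name, estimates changed sign for Bub1b (0.012), Ccnb1 (0.064), Cdc25b (0.11), Chek1 (0.073), E2f4 (0.019), Foxm1 (0.11), Mki67 (0.0080), Mybl2 (0.16), Ncapd2 (0.048), Sgo2a (0.021) and Top2a (-0.0089), none of them called in either fit. Single omissions also turned the sign of estimates near 0, over ranges of -0.074 to 0.0041 for Ccnb1, -0.064 to 0.042 for Mybl2, -0.012 to 0.019 for Pcna and -0.012 to 0.053 for Top2a. For the Ptprc slope, the response label in the model gave 1035 genes, 0 replication and 0 mitosis members, and the fit without the 2 tumors farthest in Ptprc gave 1241 genes, 0 replication and 0 mitosis members. DESeq2 called 5 mitosis members and raw totals 4, where they called 29.6% and 26.6% of all genes. Leaving out 1 tumor gave 2518 genes (without non-responder 1) to 4147 (without non-responder 2), 1 to 2 replication members and 1 to 3 mitosis members. The cause of these changes was not tested. The differences of both scores between groups and the correlations of both scores with Ptprc kept their sign under each setting run, as did the median of replication members, but single tumors moved their size. The difference of the mitosis score ran from -0.059 (without non-responder 3) to -0.00029 (without non-responder 1), that of the replication score from -0.059 (without non-responder 3) to -0.014 (without non-responder 4), and the median log2 fold change of mitosis members from -0.055 to -0.0088 (without the same tumors as the mitosis score) and of replication members from -0.057 (without non-responder 3) to -0.018 (without responder 2). The r of the mitosis score with Ptprc ran from -0.83 (without non-responder 3) to -0.36 (without non-responder 1) and that of the replication score from -0.57 (without non-responder 3) to -0.32 (without non-responder 4). Depth limited the least abundant members, of which Gins1 had 289 to 501 counts, since counting error was at or above the spread over tumors for 2 members, Gins1 and Cdc6. The 4 tumors of a group limit the precision of all.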
